A study of Mus musculus with 10 samples.

Results

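The genes described here encode the heat shock proteins and the DnaJ chaperones, the families that fold, refold and clear proteins in every compartment of the cell. Members were taken by name from the deposited table: every gene whose symbol begins with Hspa, Hspb, Hspd, Hspe, Hsph, Hsp90, Dnaja, Dnajb or Dnajc. The rule gave 67 of 13809 genes, namely 13 Hspa, 8 Hspb, 3 Hsp90 and 1 each of Hspd, Hspe and Hsph, with 4 Dnaja, 11 Dnajb and 25 Dnajc genes. By the main known location of their products, 36 were cytosolic or nuclear, 14 belonged to the endoplasmic reticulum (ER), 9 were mitochondrial and 8 lay elsewhere or were not assigned. Hspbp1 and Hspbap1 are taken in by the prefix Hspb, but encode binding partners of heat shock proteins and not small heat shock proteins. All 67 passed the filter on low values, and 62 lay above the floor of the table, a value of 1, in all 10 libraries.

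The cells came from the bone marrow of femur and tibia of C57BL/6 mice aged 12 weeks. Resident macrophages, labelled CD163+, were the ferromagnetic cells held back when unstained marrow was run over a magnetic (MACS) column, and bone marrow derived macrophages (BMDM), labelled CD163-, were grown from the flow-through of that column for 6 days (7 in the sample titles) in medium with 20% L929 cell supernatant, a source of the macrophage growth factor M-CSF. From both sources, some cells received no treatment and others were exposed for 4 h to lipopolysaccharide (LPS, 1 µg/ml), the bacterial cell wall component that activates macrophages. This gave 3 untreated and 3 LPS-treated resident libraries, and 2 untreated and 2 LPS-treated BMDM libraries. The resident fraction is defined by retention on the column, and its purity was checked here only through marker genes. Origin, days in culture and isolation step cannot be told apart in this design. The labels do not say whether libraries came from separate mice or cultures, so p-values measure only the spread between these libraries.

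Chaperones of the Hsp70 family (Hspa genes) bind exposed hydrophobic stretches of unfolded proteins and release them in a cycle driven by ATP. J-domain proteins (Dnaj genes) deliver clients and start ATP hydrolysis, and nucleotide exchange factors such as the Hsp110 proteins reset the cycle. Hsp90 acts later, on signalling kinases and receptors among other clients, small heat shock proteins (Hspb) hold unfolded proteins without ATP, and the mitochondrial Hspd1 and Hspe1 form a folding chamber. Heat, oxidants and other stresses induce the cytosolic genes through heat shock factor 1, and misfolding in the ER induces the ER genes through the unfolded protein response. In macrophages the Hsp90 and Hsp70 machines handle the kinases of the LPS pathway, and the ER chaperones fold secreted cytokines and surface receptors.

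The values are normalized reads on the authors' scale, not corrected for transcript length. How they were scaled is not given, so comparing a gene between libraries rests on that scale, and other scalings are given below. Reads recovered from the value steps numbered 27091734 to 37701333 per library. A change was called with limma at an adjusted p under 0.05 over the 13755 genes that passed the filter, and every log2 value below is a difference of log2(value + 1) with its standard error (SE). The 11 macrophage markers were present in each group and summed to 0.811 to 1.09% of the values in untreated resident, 0.759 to 0.935% in LPS-treated resident, 2.03 to 2.21% in untreated BMDM and 1.45 to 1.52% in LPS-treated BMDM libraries. The sum leans on Lyz2, with 389702 and 377817 normalized reads in untreated BMDM and 51746 to 68987 in untreated resident libraries. Lyz2, Adgre1, Csf1r, Cd68 and Fcgr1 were higher in every BMDM library than in any resident library. Mertk, Cd163, Vcam1, Mrc1 and Spic were higher in every resident library, and Cd14 overlapped. The sum therefore does not compare macrophage content between the origins. Neutrophil markers (10 genes) summed to 0.676 to 1.42% and 1.02 to 1.22% in the untreated and LPS-treated resident libraries, against 0.00588 to 0.00616% and 0.0036 to 0.00381% in BMDM, where Ly6g was at the floor. Erythroid markers (9 genes found) reached 0.114 to 0.178% in resident libraries, and at most 0.000307% in BMDM. B lineage (10), T and NK cell (8) and megakaryocyte (6) markers also had higher ranges in the resident libraries. Their part in the differences between origins was not tested. In bulk libraries fewer cells of a type and less RNA per cell cannot be told apart. Replicate 1 of each resident group carried Y-linked transcripts (Ddx3y at 1856 and 1975 normalized reads) that lay at the floor in the other 8 libraries.

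With limma on the authors' scale, fewer chaperone genes were called for LPS in resident macrophages than in BMDM, as was so over all genes. In both origins the share of members called was below that of all genes. In resident macrophages 2 members rose and 3 fell, 5 of 67 (7.46%), where 12.9% of all genes tested were called, 7.36% upward and 5.57% downward. In BMDM 23 rose and 8 fell, 31 of 67 (46.3%), where 57.8% of all genes were called, 28.3% upward and 29.5% downward. The members' median log2 change was -0.024 in resident macrophages and 0.11 in BMDM, beside 0.0024 and -0.042 over all genes. In neither origin were 36 of the 67 called, and 19 rose and 7 fell with a call in BMDM alone, which is no test of a difference between the origins. The shares of all genes with these joint calls were not computed, so the counts are not read as particular to the members.

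The split in BMDM depended on how libraries were scaled. It was 23 rises to 8 falls on the authors' scale, 19 to 9 with TMM factors, 14 to 17 after quantile normalization and 9 to 34 with equal library totals. Of all genes, 25.1% were called upward and 33.7% downward with TMM factors. The shares were 22.5% and 33.7% after quantile normalization, and 15.8% and 57% with equal library totals. These scalings moved the median of all genes by -0.10, -0.16 and -0.59. For the 36 cytosolic genes the split of 16 to 5 (median 0.20) became 10 to 8 after quantile normalization and 6 to 13 with equal totals, and for the 14 ER genes 6 to 1 (0.19) became 3 to 4 and 2 to 9. For the 9 mitochondrial genes 0 to 1 (-0.03) became 0 to 4 and 0 to 8. The members called in BMDM under all of these 4 scalings were Dnaja1, Dnaja2, Dnajb6, Dnajc1, Dnajc13, Hspa1a, Hspa4l and Hspbap1, which rose, and Dnajb13, Dnajc9, Dnajc18, Dnajc28, Hspa2 and Hsph1, which fell. In resident macrophages Dnajc13 rose and Hspa1a and Dnajb13 fell under each of the 4, and the split of 2 to 3 became 2 to 6 after quantile normalization and 1 to 16 with equal totals. There 7% of all genes were called upward and 7.64% downward after quantile normalization, and 4.7% and 12.7% with equal totals.

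The calls in resident macrophages also depended on the replicate 1 libraries with Y-linked transcripts. With a term for them in the model (the Y-linked term) 4 members rose and 12 fell, where 25.1% of all genes were called, 12.8% upward and 12.3% downward. Dnaja2 (0.24, adjusted p = 0.0174) and Dnajc21 rose and Hspa1b, Hsph1, Hsp90ab1, Dnajc18, Hspd1, Hspe1, Dnaja3, Dnajc15 and Dnajc28 fell in addition to the 5 called without it. Without both libraries 4 rose and 7 fell, where 21.1% of all genes were called, 11.5% upward and 9.62% downward. Dnaja2, Dnajc13, Dnajc21 and Hsp90aa1 rose, and Dnajb13, Dnajc15, Dnajc18, Dnajc28, Hspa1a, Hspa1b and Hspe1 fell.

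The difference between the LPS effects, resident minus BMDM, was tested directly. It was called for 21 members, 2 above and 19 below 0, where 41.8% of all genes were called, 19% above and 22.8% below. The median difference was -0.18 over the members and 0.017 over all genes. The 2 to 19 split became 6 to 13 with TMM factors, 9 to 12 after quantile normalization and 18 to 9 with equal totals. Of all genes, 22.7% were called above and 19.2% below 0 with TMM factors. The shares were 22.5% and 17% after quantile normalization, and 40.5% and 13.3% with equal totals. Called below 0 under all 4 scalings were Dnaja1, Dnaja2, Dnajb6, Dnajc1, Dnajc13, Hspa1a, Hspa1b, Hspa4l and Hspbap1, and called above 0 were Dnajc9 and Hsph1.

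**Figure D1:**
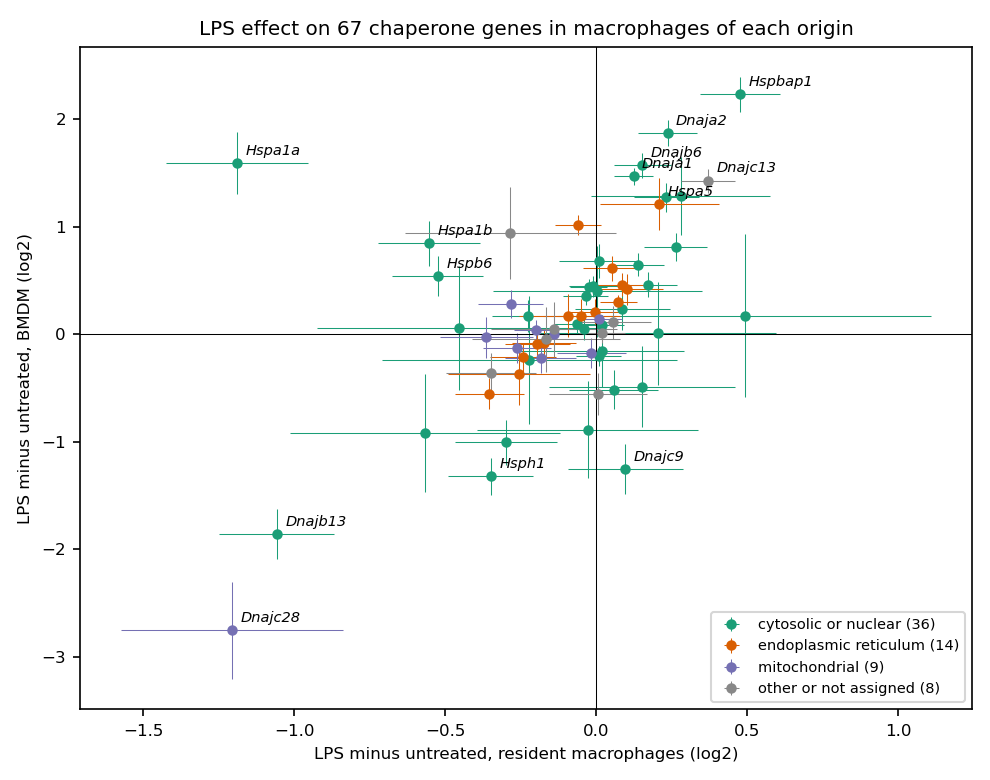
LPS effect on each of the 67 chaperone genes as log2 difference in resident macrophages (horizontal) and BMDM (vertical), with bars of 1 SE and colours by compartment. Hspa1a lies farthest to the upper left, at -1.19 and 1.59, with Hspb6 and Hspa1b nearer the centre on that side. Most points spread more along the BMDM axis than along the resident axis on the authors' scale.

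Of the stress-inducible Hsp70 genes, Hspa1a fell with LPS in resident macrophages and rose in BMDM, and Hspa1b rose in BMDM. Both are classical targets of heat shock factor 1 and encode nearly the same protein. They are neighbours on chromosome 17, Hspa1b at chr17:34956429-34959238 and Hspa1a at chr17:34969359-34972156 (RefSeq, GRCm38.p6, both on the minus strand). Hspa1a had 4922, 7179 and 6687 normalized reads in untreated and 1952, 3539 and 2882 in LPS-treated resident macrophages, and 259.8 and 419 in untreated and 969 and 1024 in LPS-treated BMDM. Untreated resident macrophages were highest, untreated BMDM lowest, and no value of one group overlapped another group. LPS lowered Hspa1a 2.24-fold in resident macrophages (log2 -1.19 ± 0.23, adjusted p = 0.0104) and raised it 2.94-fold in BMDM (1.59 ± 0.29, adjusted p = 0.000818). The difference between these effects was -2.78 ± 0.37 (adjusted p = 0.000182), and the calls in both origins held in each of the 23 alternatives run.

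Hspa1b had 4133, 6434 and 5878 normalized reads in untreated and 3741, 4092 and 3229 in LPS-treated resident macrophages, and 974 and 721 in untreated and 1581 and 1433 in LPS-treated BMDM. It rose 1.78-fold in BMDM (0.84 ± 0.21, adjusted p = 0.00548), a call lost without untreated BMDM replicate 2 (0.63, adjusted p = 0.0588) and with equal library totals. In resident macrophages the treated values were below the untreated ones in each library, but the change of -0.55 ± 0.17 missed the threshold (adjusted p = 0.0593). It passed with a term for the libraries with Y-linked transcripts (adjusted p = 0.0186) and without both of them (-0.76, adjusted p = 0.00833). Because reads of near-identical copies can be split by the counting, the pair was also summed. The sum was 11744 ± 2388 (SD, n = 3) in untreated and 6478 ± 1019.7 (SD, n = 3) in LPS-treated resident macrophages, 1.81-fold lower with LPS, and 1187 ± 66.9 (SD, n = 2) and 2504 ± 65.7 (SD, n = 2) in untreated and LPS-treated BMDM, 2.11-fold higher with LPS.

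The windows of 250 bases upstream of the Hspa1a and Hspa1b start sites (RefSeq, GRCm38.p6) are shown because Hspa1a had the largest difference between the LPS effects. They were 98.8% identical, with 3 differing positions. Capitals mark the heat shock element half-site pair GAANNTTC, which reads the same on both strands and lies 104 bases upstream of each start. Hspa1a is taken from chr17:34972157-34972406 and Hspa1b from chr17:34959239-34959488, both minus strand, written 5′ to 3′.
Hspa1a: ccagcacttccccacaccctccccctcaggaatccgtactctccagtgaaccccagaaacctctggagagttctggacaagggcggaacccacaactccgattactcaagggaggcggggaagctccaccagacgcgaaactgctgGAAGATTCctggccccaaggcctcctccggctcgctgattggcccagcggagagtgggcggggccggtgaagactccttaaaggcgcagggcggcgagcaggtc
Hspa1b: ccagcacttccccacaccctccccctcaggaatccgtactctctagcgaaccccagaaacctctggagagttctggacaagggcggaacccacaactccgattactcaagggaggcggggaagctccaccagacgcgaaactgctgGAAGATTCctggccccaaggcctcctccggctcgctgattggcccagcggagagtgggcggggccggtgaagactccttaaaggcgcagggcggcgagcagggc
GAANNTTC was found in 10 of the 56 members with an upstream window in the table used (17.9%) and in 6.14% of the 10509 genes of the expression table with such a window. Those 10 were Dnaja1, Dnaja4, Dnajb6, Dnajc27, Hspa1a, Hspa1b, Hspb1, Hspb6, Hspd1 and Hspe1, and their LPS responses ran in either direction. The tail to tail arrangement TTCNNGAA was in 6 members (10.7%) and in 7.14% of those genes. A match is a description of these letters and not a bound site.

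The constitutive Hsp70, Hspa8, rose in BMDM on the authors' scale. This Hsc70 protein carries most housekeeping folding and uncoats clathrin vesicles. Hspa8 had 47795, 53206 and 50373 normalized reads in untreated and 43197, 54941 and 55144 in LPS-treated resident macrophages, and 57289.6 and 54134 in untreated and 88429 and 90014 in LPS-treated BMDM. The LPS-treated BMDM values stood clear of the other 3 groups. LPS-treated resident values overlapped both untreated groups, which did not overlap each other. The change was 1.6-fold (0.68 ± 0.16, adjusted p = 0.00447), but quantile normalization turned it to -0.45 (adjusted p = 0.109) and equal library totals left 0.068 (adjusted p = 0.734). A ratio within a library does not depend on a single scaling factor per library, though quantile normalization can change it. Hspa1a per 100 reads of Hspa8 was 10.3 to 13.5 in untreated and 4.52 to 6.44 in LPS-treated resident libraries, and 0.453 to 0.773 and 1.1 to 1.14 in the BMDM libraries. The groups did not overlap in this ratio, which is not corrected for transcript length and is read only between groups.

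The Hsp110 nucleotide exchange factors, which restart the Hsp70 cycle, moved apart from each other in BMDM. Hsph1 had 1515, 1154 and 1054 normalized reads in untreated and 1078, 1024 and 809 in LPS-treated resident macrophages, and 2119 and 2219 in untreated and 872 and 863 in LPS-treated BMDM. It was highest in untreated BMDM, and LPS lowered it there 2.5-fold (-1.32 ± 0.17, adjusted p = 8.37e-05), below the resident libraries except LPS-treated replicate 3. In resident macrophages the change was -0.35 ± 0.14 (adjusted p = 0.138), which was not called (0.0168 with the Y-linked term, 0.0984 without both libraries it marks), and the difference between the LPS effects was 0.97 ± 0.22 (adjusted p = 0.00562). Hspa4l, another Hsp110 gene, had 593, 621 and 568 normalized reads in untreated and 698, 815 and 598 in LPS-treated resident macrophages, and 634 and 643 in untreated and 1478 and 1612 in LPS-treated BMDM. It rose 2.42-fold in BMDM (1.27 ± 0.13, adjusted p = 1.57e-05) and lay within 567.7 to 815 in the resident libraries. Hspa4, the third of them, ranged from 5799 to 7297 over all 10 libraries and was called for LPS in neither origin. Hspa2, an Hsp70 best known from spermatogenesis, fell in BMDM from 289 and 307 to 135 and 163 (-1.005 ± 0.21, adjusted p = 0.0019). Hspa4l and Hspa2 were chosen for naming after their values were seen, and so were Dnajb6, Hspb6 and Ddit3 for LPS in BMDM, Dnaja2, Eif2ak3 and Yme1l1 for LPS in resident macrophages, and Dnaja2, Hspb6 and Hspbap1 between the origins.

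The cytosolic Hsp90 genes were higher in resident macrophages. Hsp90aa1, the inducible form, had 21716, 18945 and 17618 normalized reads in untreated and 21004, 21687 and 21186 in LPS-treated resident macrophages, and 10489.5 and 10706 in untreated and 16589 and 16601 in LPS-treated BMDM. All resident values exceeded all BMDM values, and the untreated difference was 1.83-fold (0.87 ± 0.10, adjusted p = 2.37e-05). LPS raised Hsp90aa1 in BMDM by 0.65 ± 0.11 (adjusted p = 0.000513), a change of -0.24 (adjusted p = 0.0365) after quantile normalization and of 0.036 with equal library totals. In resident macrophages its LPS change was not called, nor with the Y-linked term (0.14, adjusted p = 0.176). Without both libraries that term marks, Hsp90aa1 was called as a rise there (0.23, adjusted p = 0.0354). Hsp90ab1, the constitutive form, had 53243, 43388 and 42737 normalized reads in untreated and 42719, 35589 and 40687 in LPS-treated resident macrophages, and 22209.5 and 23321 in untreated and 26034 and 25208 in LPS-treated BMDM. It was 2.04-fold higher in untreated resident than untreated BMDM libraries (1.02 ± 0.13, adjusted p = 6.08e-05) and 1.55-fold higher after LPS (0.63 ± 0.13, adjusted p = 0.00173). Its LPS change in resident macrophages, -0.22 ± 0.12, was not called (adjusted p = 0.261; 0.0492 with the Y-linked term and 0.18 without both libraries it marks).

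The cytosolic J-domain genes Dnaja2, Dnajb6 and Dnaja1 rose in BMDM under each of the 4 scalings. Dnaja2, a class A cochaperone of Hsc70, had 8158, 7226 and 6362 normalized reads in untreated and 9274, 8436 and 7855 in LPS-treated resident macrophages, and 3936 and 3978 in untreated and 14736 and 14188 in LPS-treated BMDM. LPS-treated BMDM lay above every other library, 3.65-fold over untreated BMDM (1.87 ± 0.12, adjusted p = 3.58e-07). Its paralog Dnaja1 had 7516, 7758 and 7115 normalized reads in untreated and 7847, 8457 and 8107 in LPS-treated resident macrophages, and 5321 and 5389.7 in untreated and 14873 and 14765 in LPS-treated BMDM. The rise in BMDM was 2.77-fold (1.47 ± 0.08, adjusted p = 1.01e-07). For both paralogs the order of origins turned over with LPS: resident macrophages were higher when untreated (Dnaja1 0.48 ± 0.07, Dnaja2 0.87 ± 0.11, adjusted p = 0.000191 and 4.87e-05) and lower after LPS (-0.87 ± 0.07 and -0.77 ± 0.11, adjusted p = 2.83e-06 and 0.00012). The untreated difference of Dnaja1 was 0.089 after quantile normalization (adjusted p = 0.351).

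Dnajb6, which keeps polyglutamine and other proteins from aggregating, had 4404, 3986 and 3431 normalized reads in untreated and 4619.8, 4439 and 4044 in LPS-treated resident macrophages, and 3252 and 3361 in untreated and 9903 and 9712 in LPS-treated BMDM. It rose 2.97-fold in BMDM (1.57 ± 0.11, adjusted p = 9.34e-07), and the other 8 libraries lay between 3252 and 4620. Dnajb1, the classical Hsp40 partner of Hsp70, had 2142, 2317 and 2025 normalized reads in untreated and 1952, 2301 and 2198 in LPS-treated resident macrophages, and 1039 and 1064 in untreated and 1472 and 1395 in LPS-treated BMDM. It was higher in resident macrophages whether untreated (1.04 ± 0.09, adjusted p = 2.94e-06) or LPS-treated (0.58 ± 0.09, adjusted p = 0.000202). Its rise in BMDM, 0.45 ± 0.10 (adjusted p = 0.00279), turned to -0.16 with equal library totals. In resident macrophages neither gene was called for LPS.

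Dnajb13 and Dnajc9 were the cytosolic J-domain genes with the largest falls. Dnajb13, whose product sits in the radial spokes of sperm tails and cilia, had 119, 142 and 141 normalized reads in untreated and 65.6, 56.9 and 68.7 in LPS-treated resident macrophages, and 63.8 and 56.7 in untreated and 18.5 and 13.5 in LPS-treated BMDM. It fell in macrophages of both origins, 2.1-fold in resident (-1.06 ± 0.19, adjusted p = 0.00677) and 3.76-fold in BMDM (-1.86 ± 0.23, adjusted p = 6.31e-05), in each alternative run. Dnajc9, a histone chaperone that works with Hsp70, had 402, 644 and 714 normalized reads in untreated and 540.3, 709 and 592 in LPS-treated resident macrophages, and 763 and 782 in untreated and 338 and 309 in LPS-treated BMDM. It fell 2.39-fold in BMDM (-1.25 ± 0.23, adjusted p = 0.00102), while the resident groups overlapped, and the difference between the effects was 1.35 ± 0.30 (adjusted p = 0.005).

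**Figure D2:**
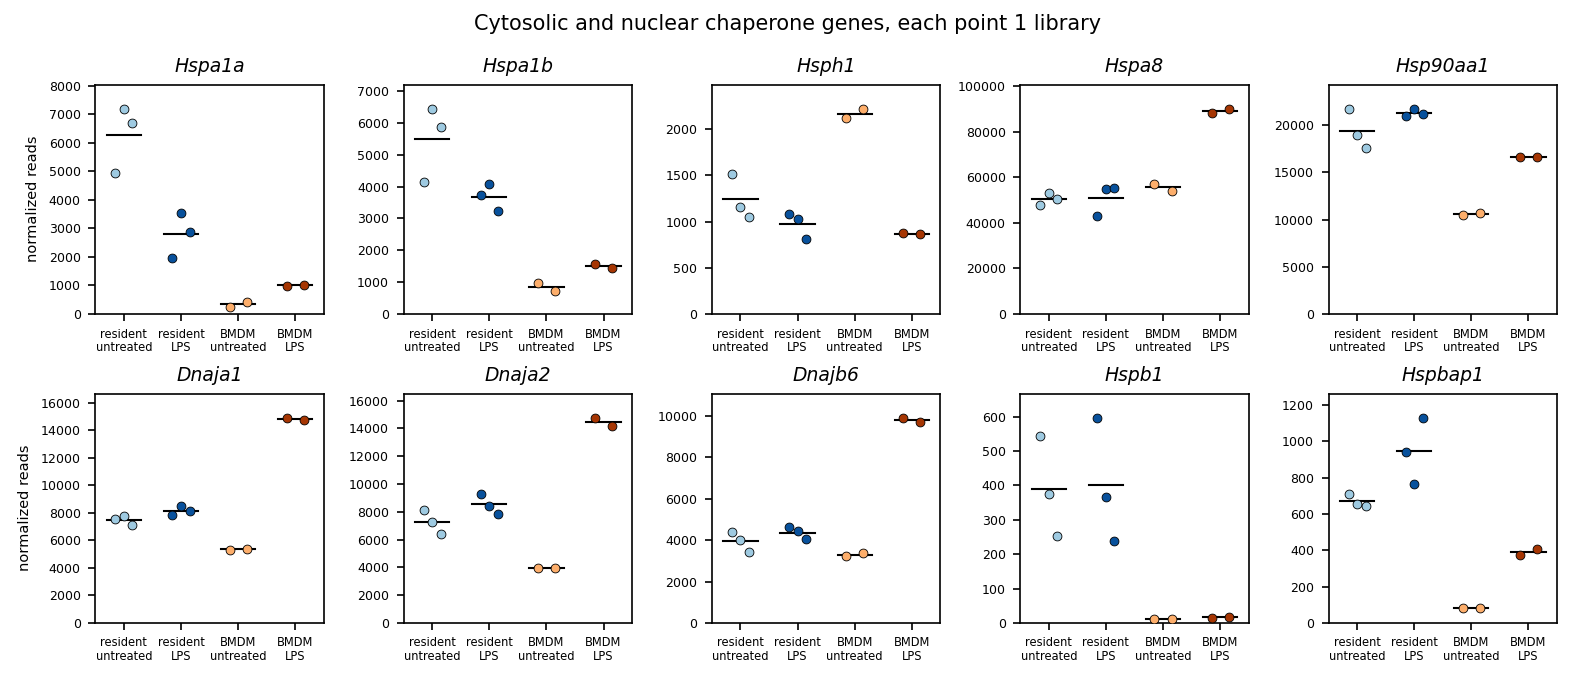
Normalized reads of 10 cytosolic or nuclear chaperone genes (vertical, linear from 0), each point 1 library and each line the group mean, for untreated and LPS-treated resident macrophages and BMDM. Hspa1a falls with LPS in the resident and rises in the BMDM libraries, Hsph1 falls in BMDM, and Dnaja1, Dnaja2 and Dnajb6 stand apart in LPS-treated BMDM.

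Of the small heat shock genes, Hspb1 was far higher in resident macrophages and was called for LPS in neither origin. Hspb1, which encodes Hsp25 and caps unfolded proteins and actin filaments, had 545, 376 and 251 normalized reads in untreated and 596, 366 and 238 in LPS-treated resident macrophages, and 12.8 and 11 in untreated and 14.4 and 17.6 in LPS-treated BMDM. The resident libraries lay between 238 and 596 and the BMDM libraries between 11 and 17.6. Resident means were 32.9-fold higher when untreated (4.86 ± 0.39, adjusted p = 1.62e-06) and 25-fold after LPS (4.47 ± 0.39, adjusted p = 3.35e-06). Within each resident treatment the 3 values spread widely, and replicate 1 was highest. Hspb8, which works with Bag3 in selective autophagy, read 9.81, 33.2 and 23.8 in untreated resident libraries and 1 and 1.83 in untreated BMDM, at or next to the floor. Hspb6 (Hsp20) had 103, 113 and 91.4 normalized reads in untreated and 70.2, 74.1 and 67.7 in LPS-treated resident macrophages, and 72.9 and 77.7 in untreated and 110 and 109.7 in LPS-treated BMDM. It fell in resident macrophages (-0.52 ± 0.15, adjusted p = 0.0475) and rose in BMDM (0.54 ± 0.18, adjusted p = 0.0285, -0.065 with equal library totals), but the resident call was lost in 13 of 23 alternatives and the BMDM call in 5, besides the reversal.

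Hspbap1, whose product binds Hspb1, and Hspbp1 carry the prefix without being small heat shock proteins. Hspbap1 had 709.9, 657 and 644 normalized reads in untreated and 940.2, 766 and 1128 in LPS-treated resident macrophages, and 81.1 and 83.2 in untreated and 371 and 406 in LPS-treated BMDM. The 4 groups did not overlap. LPS raised it 4.73-fold in BMDM (2.23 ± 0.16, adjusted p = 9.34e-07), the largest rise among the members, and 1.41-fold in resident macrophages (0.48 ± 0.13, adjusted p = 0.0412), a call lost in 12 of 23 alternatives. Untreated resident macrophages exceeded untreated BMDM 8.16-fold (3.01 ± 0.15, adjusted p = 4.35e-08). Hspbp1, a nucleotide exchange factor of Hsp70, was lower in untreated resident than untreated BMDM libraries (869.5, 819 and 788 against 1358 and 1355, -0.72 ± 0.10, adjusted p = 8.04e-05).

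Between origins, 42 members differed when untreated, 26 higher and 16 lower in resident macrophages, where 71.9% of all genes tested were called (39.2% higher and 32.6% lower). After LPS 41 differed, 19 higher and 22 lower, where 71.3% were called (36.7% and 34.5%). The untreated median was 0.13 over the members and 0.08 over all genes, and after LPS -0.064 and 0.029. Of the 36 cytosolic genes 20 were higher and 3 lower in untreated resident macrophages (median 0.50), a split of 19 to 9 with TMM factors, 15 to 8 after quantile normalization and 18 to 6 with equal totals. Of 14 ER genes 2 were higher and 5 lower, and of 9 mitochondrial genes 2 and 4. The untreated split of 26 to 16 became 24 to 23 with TMM factors, 21 to 24 after quantile normalization and 24 to 22 with equal totals, and the LPS split of 19 to 22 became 33 to 16 with equal totals. Of all genes untreated, 34.9% were called higher and 37.3% lower with TMM factors. The shares were 30% and 42.2% after quantile normalization, and 34% and 37.7% with equal totals. After LPS they were 48% and 22.4% with equal totals. Under all 4 scalings 20 members were higher and 15 lower in untreated resident macrophages. In both comparisons 17 members were higher and 14 lower in resident macrophages, and 3 changed sides: Dnaja1, Dnaja2 and Hspb6. The shares of all genes with such joint calls were not computed, so these counts are not read as particular to the members. The untreated call of Hspb6 (0.43, adjusted p = 0.0395) was lost in 11 of 23 alternatives, among them each other scaling (0.053 after quantile normalization, 0.27 with equal totals, 0.31 with TMM factors).

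**Figure D3:**
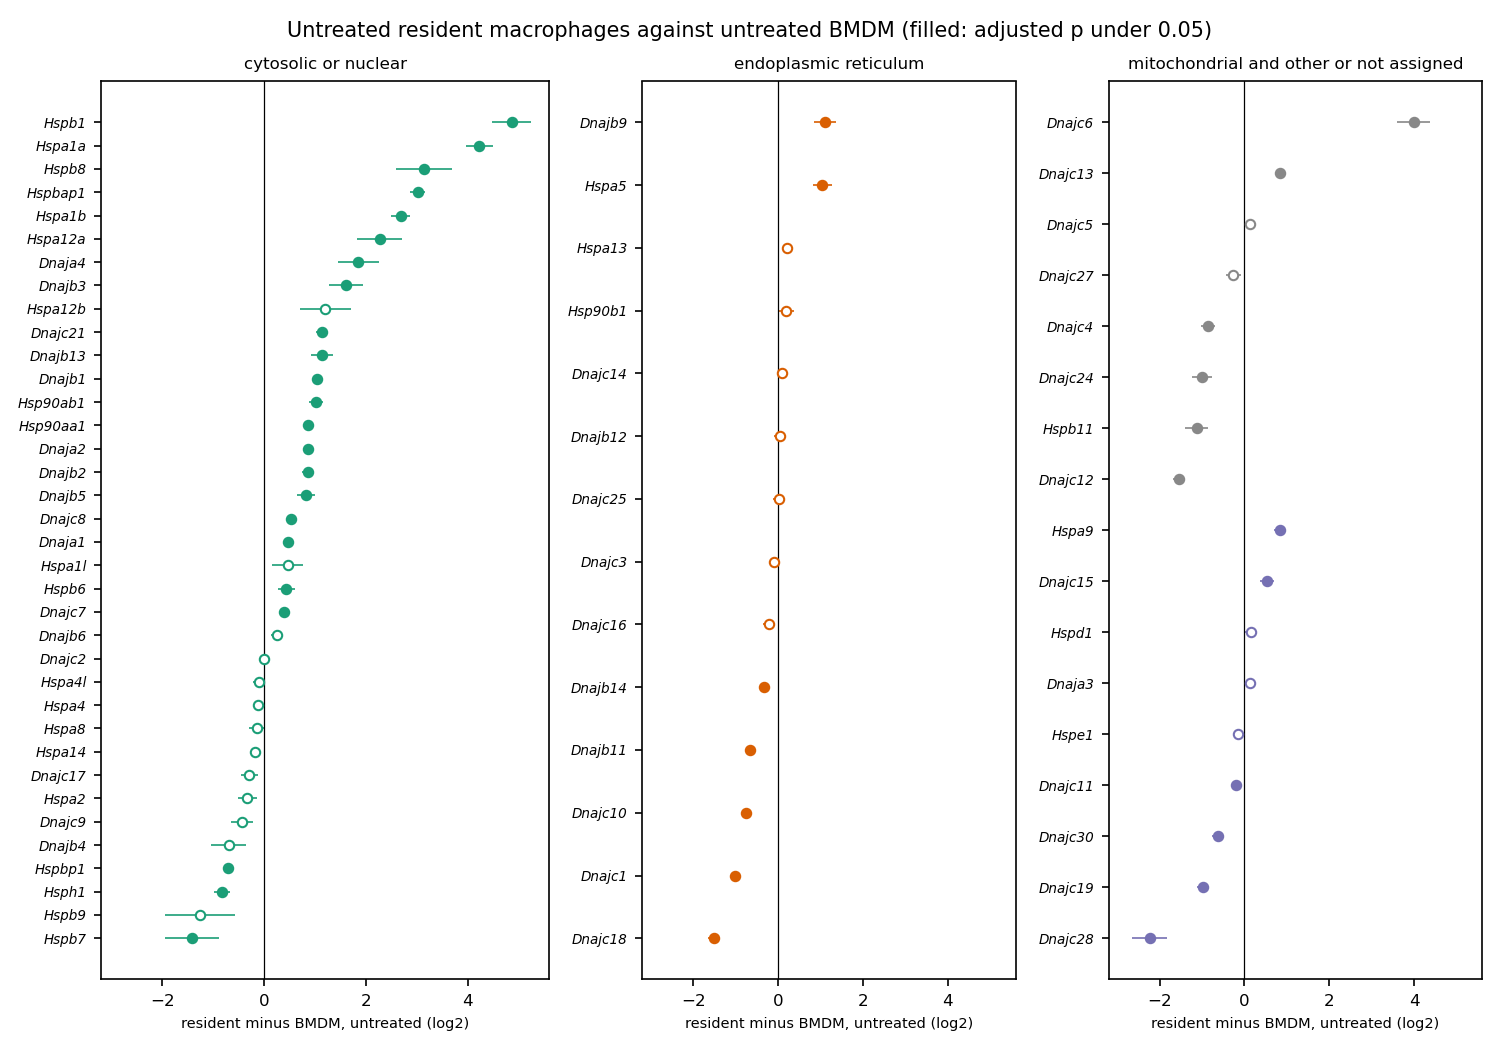
Difference between untreated resident macrophages and untreated BMDM for each member, as log2 resident minus BMDM with bars of 1 SE, filled where the adjusted p was under 0.05, in panels by compartment. Hspb1 (4.86) and Hspa1a (4.22) top the cytosolic panel, Dnajb9 (1.11) and Hspa5 (1.04) the ER panel, and Dnajc28 (-2.23) is the lowest member.

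In the ER, the Hsp70 gene Hspa5 led. Its product BiP translocates and folds entering proteins and holds the sensors of the unfolded protein response inactive. Hspa5 had 57012, 43647 and 33344 normalized reads in untreated and 61511, 50008 and 41732 in LPS-treated resident macrophages, and 20887 and 21412 in untreated and 48931 and 48779 in LPS-treated BMDM. Untreated BMDM lay below every other library, and the other groups overlapped. LPS raised it 2.31-fold in BMDM (1.21 ± 0.24, adjusted p = 0.00155), with 0.24 after quantile normalization (adjusted p = 0.287), and untreated resident macrophages exceeded untreated BMDM 2.11-fold (1.04 ± 0.22, adjusted p = 0.00163). The difference between the LPS effects, -0.998 ± 0.31 (adjusted p = 0.0262), was lost in 8 of 22 alternatives. In each resident group replicate 1, the library with Y-linked transcripts, was highest.

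Hsp90b1, the ER form of Hsp90 that folds Toll-like receptors and integrins, had 23016, 18923 and 15855 normalized reads in untreated and 21963, 17819 and 14568 in LPS-treated resident macrophages, and 16197 and 16993 in untreated and 18571 and 18832 in LPS-treated BMDM. It was called in no comparison. Hspa5 per 100 reads of Hsp90b1, a ratio that no single scaling factor per library changes, was 210.3 to 247.7 in untreated and 280.1 to 286 in LPS-treated resident libraries, and 126 to 129 and 259 to 263 in BMDM. LPS-treated values lay above the untreated values of the same origin in this ratio. It is not corrected for transcript length.

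ER J-domain genes differed between the origins in both directions. Dnajb9 (ERdj4), which hands BiP to the stress sensor Ire1, had 3640.5, 2266 and 1777 normalized reads in untreated and 2655, 1937 and 1679 in LPS-treated resident macrophages, and 1098 and 1174 in untreated and 854 and 898 in LPS-treated BMDM. It was higher in resident macrophages, 1.11 ± 0.26 untreated (adjusted p = 0.0034) and 1.23 ± 0.26 after LPS (adjusted p = 0.00184). Dnajc1, a membrane J protein at the ribosome, had 665, 606 and 573 normalized reads in untreated and 605, 598 and 566 in LPS-treated resident macrophages, and 1271 and 1213 in untreated and 2455 and 2576 in LPS-treated BMDM. It rose 2.03-fold in BMDM (1.02 ± 0.09, adjusted p = 5.91e-06), and after LPS resident macrophages were 4.27-fold lower (-2.09 ± 0.09, adjusted p = 1.93e-08). Dnajb11 (ERdj3), a secreted and lumenal cochaperone of BiP, ranged from 2526 to 3180 in the 6 resident and from 4441 to 5299 in the 4 BMDM libraries (-0.65 ± 0.11 untreated, adjusted p = 0.000298).

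Dnajc10 (ERdj5), which reduces disulfides of proteins bound for degradation, and Dnajc18 were also lower in untreated resident macrophages, by 0.74 ± 0.10 and 1.52 ± 0.13 on the log2 scale (adjusted p = 6.17e-05 and 2.54e-06). Hspa13, a truncated Hsp70 of microsomes, rose in BMDM from 1138 and 1149.8 to 1686 and 1818 (0.61 ± 0.12, adjusted p = 0.00107), a change of 0.0029 with equal library totals. Dnajc3, which binds BiP clients and inhibits eIF2α kinases, ranged from 2562 to 3734 over all 10 libraries and was called in no comparison. For LPS in resident macrophages 1 of 14 ER members had an unadjusted p under 0.05, and the share of all genes there was not computed. None of these ER members passed the adjusted threshold with limma, and voom on recovered reads also called none. Equal library totals called 4 of them lower, and the Y-linked term 1, Dnajc18, where 12.7 and 12.3% of all genes were called lower.

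Upstream windows of Hspa5, Hsp90b1 and Dnajc3 are shown because only these 3 of the 56 members with a window held the ER stress element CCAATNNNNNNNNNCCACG on either strand (5.36%, beside 0.152% of the 10509 genes). Capitals mark it. Of the 3, LPS called a rise for Hspa5 in BMDM and no change for the others. Windows are Hspa5 at chr2:34771840-34772089 (plus strand), Hsp90b1 at chr10:86705445-86705694 (minus) and Dnajc3 at chr14:118937682-118937931 (plus), GRCm38.p6.
Hspa5: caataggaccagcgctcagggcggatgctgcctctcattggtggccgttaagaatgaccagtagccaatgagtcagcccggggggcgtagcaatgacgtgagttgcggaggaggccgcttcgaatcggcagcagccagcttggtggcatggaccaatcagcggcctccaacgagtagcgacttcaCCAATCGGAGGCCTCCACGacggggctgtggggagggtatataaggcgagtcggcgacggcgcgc
Hsp90b1: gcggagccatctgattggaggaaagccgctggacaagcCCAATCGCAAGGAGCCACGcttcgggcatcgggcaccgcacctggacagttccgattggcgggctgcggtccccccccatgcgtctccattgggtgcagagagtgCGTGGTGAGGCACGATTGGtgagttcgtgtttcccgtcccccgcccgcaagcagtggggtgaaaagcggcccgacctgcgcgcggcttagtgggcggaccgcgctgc
Dnajc3: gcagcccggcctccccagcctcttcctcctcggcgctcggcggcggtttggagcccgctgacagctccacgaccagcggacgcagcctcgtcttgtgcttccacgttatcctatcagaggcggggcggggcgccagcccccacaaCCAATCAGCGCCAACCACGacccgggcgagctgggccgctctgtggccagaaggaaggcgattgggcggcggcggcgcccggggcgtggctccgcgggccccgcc

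**Figure D4:**
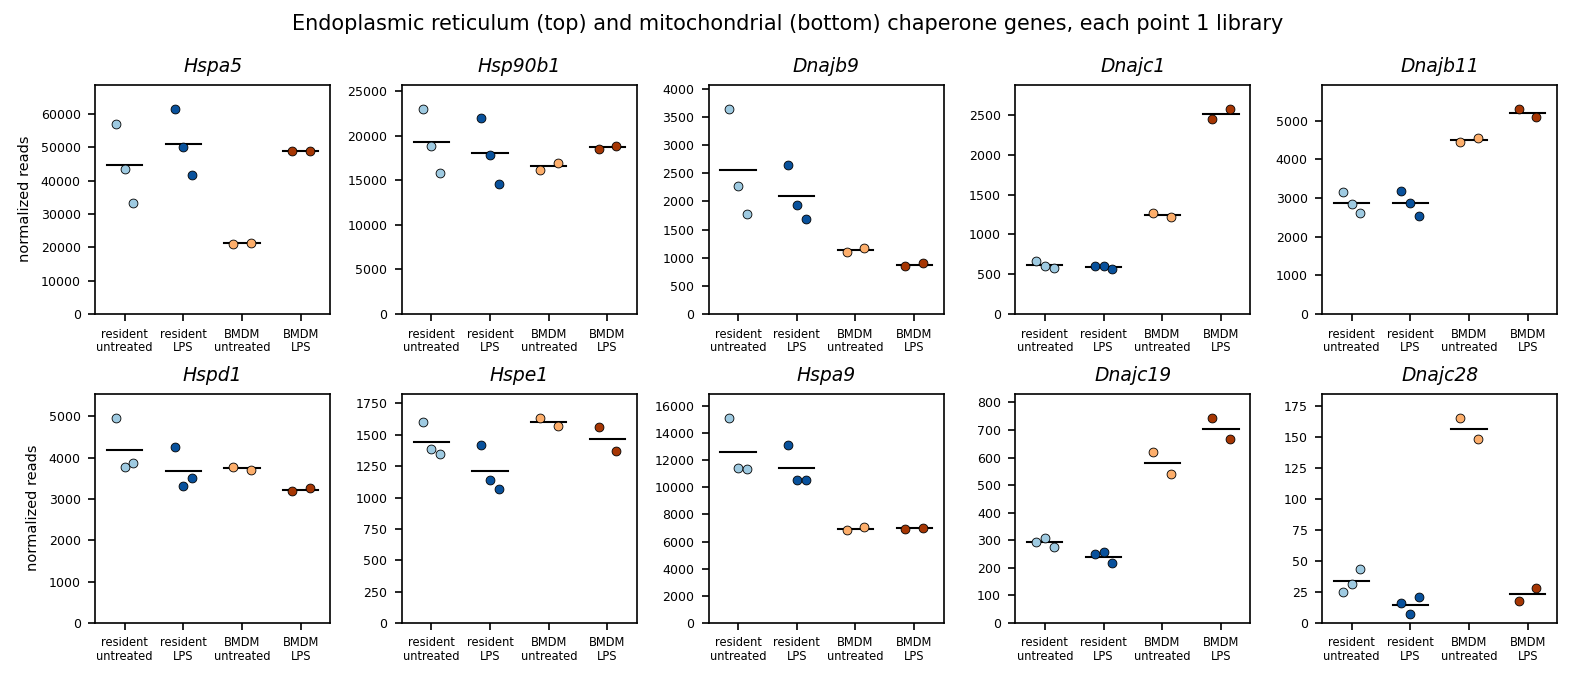
Normalized reads of 5 ER genes (top) and 5 mitochondrial genes (bottom), each point 1 library and each line the group mean, on linear axes from 0. Hspa5 is lowest in untreated BMDM, Dnajc1 highest in LPS-treated BMDM, and Hspa9 is higher and Dnajc19 lower in the resident groups.

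Of the 9 mitochondrial members none was called for LPS in resident macrophages and 1, Dnajc28, in BMDM, where 12.9% and 57.8% of all genes were called. Hspd1 (Hsp60) and Hspe1 (Hsp10) form the chamber that folds imported proteins, and are read in opposite directions from a common promoter. Hspd1 had 4953, 3763 and 3861 normalized reads in untreated and 4247, 3301 and 3505 in LPS-treated resident macrophages, and 3769 and 3709 in untreated and 3178 and 3256 in LPS-treated BMDM. Its log2 change with LPS was -0.18 ± 0.12 in resident macrophages and -0.22 ± 0.15 in BMDM, and Hspe1 changed by -0.26 ± 0.11 and -0.13 ± 0.14, none of them called (adjusted p = 0.369, 0.23, 0.165 and 0.463). With a term for the libraries with Y-linked transcripts both passed the threshold in resident macrophages (adjusted p = 0.0201 and 0.0158), below the untreated level, but without both of those libraries Hspe1 passed (0.025) and Hspd1 did not (-0.16, adjusted p = 0.0711). In resident macrophages 5 of the 9 mitochondrial members had an unadjusted p under 0.05. The share of all genes at that threshold was not computed. None of the 9 was called there by limma or by voom on recovered reads. The number called lower there was 2 of 9 after quantile normalization, 6 with equal library totals, 5 with the Y-linked term and 3 without both libraries it marks, where 7.64, 12.7, 12.3 and 9.62% of all genes were called lower.

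The upstream windows of Hspd1 and Hspe1 overlap on opposite strands. The Hspe1 window, chr1:55087898-55088147 (plus strand, GRCm38.p6), and that of Dnajb6, chr5:29735648-29735897 (plus), are shown because they held the longer heat shock element GAANNTTCNNGAA, searched on both strands, which contains both arrangements above. It was in 3 of 56 members, Hspd1, Hspe1 and Dnajb6 (5.36%), and in 0.485% of the 10509 genes. In the Hspe1 window 2 overlapping matches, 1 per strand, form the capitals.
Hspe1: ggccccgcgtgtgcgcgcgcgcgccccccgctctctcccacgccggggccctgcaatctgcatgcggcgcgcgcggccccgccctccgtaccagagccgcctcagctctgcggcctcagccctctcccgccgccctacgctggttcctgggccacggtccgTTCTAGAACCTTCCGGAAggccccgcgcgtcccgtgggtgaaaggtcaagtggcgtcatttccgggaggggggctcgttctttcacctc
Dnajb6: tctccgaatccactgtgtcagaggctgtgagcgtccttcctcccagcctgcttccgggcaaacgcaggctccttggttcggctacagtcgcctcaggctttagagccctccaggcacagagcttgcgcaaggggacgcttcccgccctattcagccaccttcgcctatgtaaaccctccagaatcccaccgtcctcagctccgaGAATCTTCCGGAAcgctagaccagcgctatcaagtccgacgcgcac
The genes behind these windows did not move alike: Dnajb6 rose in BMDM while Hspd1 and Hspe1 were called in neither origin.

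Hspa9 (mortalin), the mitochondrial Hsp70 that pulls proteins through the inner membrane, had 15114, 11427 and 11345 normalized reads in untreated and 13149, 10551 and 10541 in LPS-treated resident macrophages, and 6868 and 7065 in untreated and 6957 and 7025 in LPS-treated BMDM. Resident values exceeded BMDM values throughout, 1.81-fold untreated (0.85 ± 0.14, adjusted p = 0.000321) and 1.63-fold after LPS (0.70 ± 0.14, adjusted p = 0.00115). Dnajc19, the J protein of the same import motor, was placed the other way, with 293, 308 and 277 normalized reads in untreated and 248, 258 and 216 in LPS-treated resident macrophages, and 621 and 542 in untreated and 743 and 666 in LPS-treated BMDM. It was 1.99-fold lower in untreated resident macrophages (-0.99 ± 0.12, adjusted p = 3.83e-05). Dnajc15 (MCJ), a paralog of Dnajc19 that restrains respiration, was higher in untreated resident macrophages (0.54 ± 0.17, adjusted p = 0.017), a call lost with TMM factors (0.41, adjusted p = 0.0626) and without either untreated BMDM library (0.53 to 0.54). Dnaja3, a tumour suppressor cochaperone of Hspa9, ranged from 1061 to 1308 over all 10 libraries.

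Dnajc28 had the largest fall among the members. Its values were 25, 31.3 and 43.8 normalized reads in untreated and 15.7, 7.51 and 20.6 in LPS-treated resident macrophages, and 165 and 148 in untreated and 17.5 and 28.4 in LPS-treated BMDM. It was 6.82-fold lower in BMDM with LPS (-2.75 ± 0.45, adjusted p = 0.000424), down to the range of the resident libraries, and untreated resident macrophages were 4.69-fold below untreated BMDM (-2.23 ± 0.41, adjusted p = 0.000691). Dnajc30, which assists ATP synthase, was also lower in untreated resident macrophages (-0.63 ± 0.13, adjusted p = 0.00132). The summed share of the 9 mitochondrial genes was 0.0741 to 0.0844% of a library's values in untreated resident, 0.0618 to 0.0703% in LPS-treated resident, 0.0645 to 0.0685% in untreated BMDM and 0.0417 to 0.0428% in LPS-treated BMDM. A share depends on the total of the values, which was 24696867 and 25958567 in untreated and 38767247 and 38601861 in LPS-treated BMDM. Rn45s, the ribosomal RNA precursor, had 1219770 normalized reads in untreated BMDM replicate 2 and 57340 in replicate 1. Its part in the shares and in the scaling to equal library totals was not tested.

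**Figure D5:**
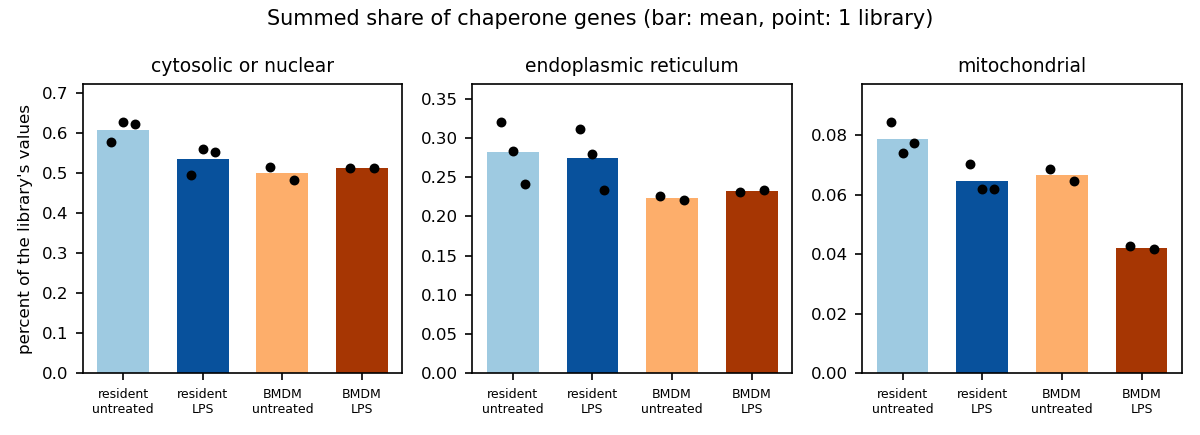
Summed normalized reads of the cytosolic, ER and mitochondrial members as percent of all values in a library, with bars for group means and points for libraries, axes from 0. LPS-treated BMDM have the lowest mitochondrial share (mean 0.0422%), and untreated resident macrophages the highest cytosolic share (mean 0.61%).

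Members with other locations differed between the origins in both directions. Dnajc6 (auxilin), which uncoats clathrin vesicles with Hsc70, read 26.8, 56 and 33.3 in untreated and 23.1, 37.6 and 31.4 in LPS-treated resident libraries, and 1.82 and 1 in untreated BMDM, at or next to the floor. Dnajc13, an endosomal J protein that sorts receptors, had 4642, 3669.5 and 3828 normalized reads in untreated and 5137, 5008 and 5485 in LPS-treated resident macrophages, and 2209 and 2307 in untreated and 5866 and 6278 in LPS-treated BMDM. It rose in both origins, 2.69-fold in BMDM (1.43 ± 0.11, adjusted p = 1.64e-06) and 1.29-fold in resident macrophages (0.37 ± 0.09, adjusted p = 0.0251), the latter lost in 6 of 23 alternatives. Dnajc12, linked to aromatic amino acid hydroxylases, was 2.91-fold lower in untreated resident macrophages (-1.55 ± 0.14, adjusted p = 4.8e-06). Dnajc24, needed for the diphthamide of elongation factor 2, and Hspb11, a subunit of ciliary transport trains, were lower too (-0.99 ± 0.23 and -1.13 ± 0.27, adjusted p = 0.00317 and 0.00382).

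The other 25 members are given by their calls. Of the cytosolic ones, the splicing-linked Dnajc8, the Hsp70 and Hsp90 adaptor Dnajc7, the ribosome assembly factor Dnajc21, Dnajb2 and Dnajb3 rose in BMDM and were higher in untreated resident macrophages, and Dnajc17 fell in BMDM. Dnaja4, Dnajb5 and Hspa12a were higher, and Hspb7 lower, in resident macrophages with or without LPS, and Hspa12b was higher after LPS. Hspa12a lay at the floor in both untreated BMDM libraries and between 4.75 and 12.5 in the resident ones. Also near the floor were Dnajb3 in untreated BMDM (2.73 and 3.66), Hspb7 in the resident libraries (1 to 3.8) and Hspa12b in LPS-treated BMDM (3.08 and 1.35). Hspa14, Hspa1l, Hspb9, Dnajb4 and Dnajc2 were called in no comparison. Of the ER members Dnajc14 and Dnajc25 rose in BMDM, Dnajb14 was lower in resident macrophages with or without LPS, and Dnajb12 and Dnajc16 were called in no comparison. Dnajc11, which is mitochondrial, and Dnajc4, which is grouped with the other locations, were lower in resident macrophages in both states. Dnajc27 fell in BMDM, a call lost in 5 of 23 alternatives. Dnajc5, the cysteine string protein of vesicles, was called in no comparison and ranged from 3737 to 4569. None of the LPS calls in BMDM given in this paragraph held under all 4 scalings.

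Partner genes that do not carry these prefixes were followed in 4 lists, whose counts stand beside the shares of all genes called. For LPS in BMDM 28.3% of all genes rose and 29.5% fell, with TMM factors 25.1% and 33.7%, after quantile normalization 22.5% and 33.7%, and with equal library totals 15.8% and 57%. In resident macrophages 7.36% rose and 5.57% fell. Of the 14 subunits of TRiC and prefoldin, the chamber and the holdase that fold actin and tubulin, 10 rose and none fell with LPS in BMDM on the authors' scale, 7 and none with TMM factors, 2 and 8 after quantile normalization and none and 8 with equal library totals. In resident macrophages none was called by limma or by voom on recovered reads, and the Y-linked term called 1 higher and 2 lower. There 4 of the 14 had an unadjusted p under 0.05, a threshold at which the share of all genes was not computed. The median log2 changes were 0.35 in BMDM and 0.089 in resident macrophages. Cct3, a TRiC subunit, had 6024, 5927 and 5223 normalized reads in untreated and 6631, 6039 and 5912 in LPS-treated resident macrophages, and 4444 and 4363 in untreated and 7198 and 7489 in LPS-treated BMDM, and the difference between the LPS effects was -0.62 ± 0.12 (adjusted p = 0.00218), but 0.043 after quantile normalization. Vbp1, a prefoldin subunit, rose by 0.86 in BMDM (adjusted p = 5.28e-05), and by 0.25 with equal library totals (adjusted p = 0.0648). After LPS 9 of the 14 were lower in resident macrophages than in BMDM, and none higher, where 34.5% of all genes were lower and 36.7% higher. The split was 3 higher to 3 lower after quantile normalization, and 5 to 2 with equal totals. Of all genes, 31.7% were higher and 37.9% lower after quantile normalization, and 48% and 22.4% with equal totals.

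Of 27 heat shock factors and cytosolic cochaperones, 5 rose and 11 fell in BMDM (1 and 17 after quantile normalization, 1 and 22 with equal totals), and 2 rose and 3 fell in resident macrophages. Stip1 (Hop), which passes clients from Hsp70 to Hsp90, had 3977, 3808 and 3536 normalized reads in untreated and 4915, 5011 and 5107 in LPS-treated resident macrophages, and 2922 and 2684 in untreated and 8224 and 8266 in LPS-treated BMDM. It rose in both origins, more in BMDM (1.56 ± 0.08, adjusted p = 7.33e-08) than in resident macrophages (0.41 ± 0.07, adjusted p = 0.00412), with a difference of -1.15 ± 0.11 (adjusted p = 1.18e-05). Bag2, which restrains the Hsp70 ubiquitin ligase Stub1, fell in BMDM from 58.3 and 64 to 17.5 and 16.3 (-1.80 ± 0.22, adjusted p = 4.91e-05) and was 51 to 63.6 in the resident libraries. Hsbp1, an inhibitor of heat shock factor 1, was lower in untreated resident macrophages (-0.81 ± 0.10, adjusted p = 5.43e-05), and Ptges3 (p23), an Hsp90 cochaperone, higher (0.90 ± 0.10, adjusted p = 2.15e-05).

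Of 26 other ER folding and stress genes, 5 rose and 6 fell in BMDM (1 and 18, and 1 and 21, under the same scalings), and 1 rose and 4 fell in resident macrophages. Ero1l, the oxidase that recharges protein disulfide isomerase, rose in both (1.01 ± 0.08 and 0.41 ± 0.06, adjusted p = 1.18e-06 and 0.00307). Eif2ak3 (PERK), a sensor of the unfolded protein response, fell in BMDM (-1.66 ± 0.15, adjusted p = 4.55e-06) and in resident macrophages (-0.42 ± 0.12, adjusted p = 0.0477), the latter lost in 15 of 23 alternatives. Ddit3 (CHOP), the death factor downstream of it, also fell in both, by 1.09 ± 0.11 on the log2 scale in BMDM (adjusted p = 1.41e-05) and by 0.57 ± 0.09 in resident macrophages (adjusted p = 0.00408). Serpinh1 (Hsp47), the chaperone of collagen, read 146 to 349.9 in the 6 resident and 1 to 4.11 in the 4 BMDM libraries. Of 13 mitochondrial folding and protease genes, 3 rose and 4 fell in BMDM (2 and 5, and 1 and 10), and 1 rose and 1 fell in resident macrophages. Yme1l1, an inner membrane protease, rose in BMDM (1.03 ± 0.08, adjusted p = 1.06e-06) and in resident macrophages (0.23 ± 0.06, adjusted p = 0.0405, lost in 14 of 23 alternatives), and Hscb, the J protein of iron-sulfur cluster assembly, fell in BMDM (-1.40 ± 0.19, adjusted p = 9.77e-05).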

How the data were processed

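RNA-seq libraries (10, in 4 groups) were read from 1 table of normalized reads per gene. Per the submitters' processing notes the authors aligned with HISAT 0.1.7 to mm10; how reads were counted and scaled is not given in the sources used here. The deposited values, here called signal, are whole multiples of the value of 1 read in each library (0.892 to 1.35, 100% of values up to 1000 reads within 0.02), with a floor of 1. Summed values per library were 24696867 to 38767247. Genes whose value reached 10 in 2 or more libraries entered limma 3.58.1 (trend, R 4.3.3) as log2(value + 1), 4 groups in 1 model with 6 residual degrees of freedom, 5 contrasts, two-sided, Benjamini-Hochberg over 13755 genes. The script was tested on simulated data. Alternatives were other pseudocounts, filters, scalings, variance models and sample sets. Members, lists and tests were chosen with earlier results of these data known. Genes named by rule were 19 fixed members, the 3 largest called rises and falls per compartment with a mean of at least 20, and the largest per partner list. Gene positions and upstream windows came from RefSeq tables (GRCm38.p6), where 67 members matched by symbol and 56 had a window.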

Additional observations from a re-analysis of the deposited data

Results flagged for a closer look

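For 21 of the 67 members the LPS effect in resident macrophages and that in BMDM differed by the test of the difference itself (limma, adjusted p under 0.05, log2 effect in resident minus log2 effect in BMDM). That is 31.3% of the members, below the 41.8% called among all genes tested. Among the Hsp70 and Hsp110 genes the differences were -2.78 for Hspa1a, -1.40 for Hspa1b, -0.67 for Hspa8, -1.04 for Hspa4l and 0.97 for Hsph1. The small heat shock gene Hspb6 gave -1.06, and Hspa1a and Hspb6 were the 2 members whose LPS changes were called in opposite directions. For Hsp90aa1 the difference was -0.51, and for the Hspb1-binding Hspbap1 it was -1.75.

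Among the cytosolic J-domain genes the differences were -1.34 for Dnaja1, -1.63 for Dnaja2, -0.45 for Dnajb1, -1.41 for Dnajb6, -0.46 for Dnajc7, -0.39 for Dnajc8, -0.55 for Dnajc21 and 1.35 for Dnajc9. In the ER they were -0.998 for Hspa5, -1.08 for Dnajc1 and -0.56 for Hspa13. The mitochondrial import gene Dnajc19 gave -0.56 and the endosomal Dnajc13 gave -1.06. Of these 21, 11 were called in the same direction under each of 4 scalings, and the matching share of all genes was not computed.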

How the results depend on the processing

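The number of members called for LPS in resident macrophages, 5, was 8 after quantile normalization, 17 with equal library totals, 3 without the variance trend, 2 with only the groups compared, 16 with a term for the libraries with Y-linked transcripts and 11 without both of them (the term was chosen after seeing the data). The share of all genes called moved with it, from 12.9% to 14.6, 17.4, 10.1, 4.81, 25.1 and 21.1% in the same order. Leaving out 1 library at a time gave 2 to 9 there, with 9 without untreated resident replicate 1, 2 without untreated resident replicate 2 or 3, and 3 without LPS-treated resident replicate 2 or 3 or any one BMDM library. It gave 25 to 31 for LPS in BMDM, 37 to 44 between untreated and 35 to 45 between LPS-treated origins, and 15 to 24 for the difference. The other 4 counts stayed within 1.5 times of their values in each alternative run. Of 3254 comparisons of 143 named calls with an alternative, 3067 kept direction and threshold, 176 lost the threshold and 11 reversed, and the cause was not tested.

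The reversals came with scaling. After quantile normalization they were Hspa8 (-0.45) and Hsp90aa1 (-0.24) for LPS in BMDM, and Hspa8 (0.046), Hsp90aa1 (0.22), Cct3 (0.043) and Dnajc7 (0.094) for the difference. With equal library totals they were Dnajb1 (-0.16) and Hspb6 (-0.065) for LPS in BMDM, and Dnajb1 (0.033), Dnajc7 (0.028) and Dnajc8 (0.095) for the difference. No paired analysis was run because the labels pair no libraries: the titles number them from 1 to 10 across groups. Some transcripts were placed alike in both resident groups: the Y-linked ones in replicate 1, and Pf4 highest in replicate 2 (10961 and 11427 normalized reads). Whether resident libraries match across treatments was not tested, and only the Y-linked term and the removal of both libraries address it in part. An unmodelled match could hide LPS changes in resident macrophages. The planned quasi-likelihood count test was not run, and voom on recovered reads (chosen after seeing the data) stood in for it. Fitting only the groups compared gives no value for the difference. Depth limits the 5 of 67 members that reached the floor in some library, and groups of 3 and 2 libraries limit the precision of all.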
